A study of Mus musculus with 26 samples.

Results

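Imprinted genes were followed in the RNA-seq libraries of a study of Prdm14 and its partner Mtgr1 in mouse embryonic stem cells (mESCs). The members were 38 named imprinted genes, taken from a list by gene name and not by their values, and all 38 were found among the 24015 genes of the files. They fell into the H19-Igf2, Kcnq1ot1, Dlk1-Dio3, Igf2r-Airn, Peg10, Peg3, Mest, Snrpn and Gnas clusters and a set of genes with no other member nearby. Of these, 33 passed a filter of at least 1 RPKM (reads per unit of gene length and of library depth) in at least 2 of 15 libraries. Kcnq1, Nap1l5, Snrpn, Usp29 and Zim1 did not pass, and Airn and Magel2 passed through the Mtgr1-/- libraries alone.

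All cells came from a mESC line that carries a Stella:GFP reporter, and all but the 2i+LIF cells had spent 5 days in serum+LIF before RNA was taken. Wild-type (wt) cells gave 1 library in serum+LIF and 2 in 2i+LIF, a medium that holds mESCs in the naive state. Prdm14-/- cells, made with CRISPR/Cas9, gave 2 libraries from the single-cell clones G6 and F10. FH-Prdm14 cells (2 libraries) are those same clones with a FLAG-HA tagged Prdm14 cDNA put back, and E294K cells (2 libraries) are the same clones with a cDNA mutated in the surface of Prdm14 that binds Mtgr1. Mtgr1-/- cells gave 3 libraries from the CRISPR/Cas9 clones A3, C1 and C3, and FH-Mtgr1 cells (3 libraries) are these clones with a tagged Mtgr1 cDNA. Each pair of knockout and rescue therefore shares the history of its clone, whereas the wt cells are the parental line and were sequenced once in serum+LIF. Counted reads ranged from 10668572 to 21218414 per library. The targeted gene Prdm14 was at 1.96 and 3.60 RPKM in Prdm14-/- cells, at 116 and 79.8 RPKM in FH-Prdm14 cells with 2.77 RPKM in the wt serum+LIF library, so that the rescue lines held far more Prdm14 RNA than wt cells. Cbfa2t2, the gene for Mtgr1, was at 18.0 to 19.9 RPKM in Mtgr1-/- cells and at 25.5 to 28.0 RPKM in FH-Mtgr1 cells. As the knockouts are small lesions in an exon, these RNA levels do not check the loss of protein. The embryonic stem cell markers summed to 1325 to 1585 RPKM in Mtgr1-/- cells and 2290 to 2983 RPKM in FH-Mtgr1 cells. The fall in this sum was largest in Dppa5a, at 295 to 494 against 1165 to 1830 RPKM. Of the 8 tested, 3 were lower in Mtgr1-/- cells and 2 were higher, Sall4 (83.2 to 86.7 against 46.8 to 50.6 RPKM) and Lin28a (160 to 164 against 100.5 to 129 RPKM). These shares of 37.5% lower and 25% higher stood beside 26.1% and 26.2% of all genes tested, so the counts say little about the markers. The 6 fibroblast feeder markers summed to 12.8 to 26.2 RPKM in Mtgr1-/- and 20.8 to 27.5 RPKM in FH-Mtgr1 cells. Of the 3 tested, Col1a1 (5.38, 5.21 and 16.7 against 0.953 to 2.97 RPKM) and Col1a2 (at most 2.95 RPKM) were higher and Thy1 was lower in Mtgr1-/- cells, while Postn and Lum stayed under 0.5 RPKM in every library. Col1a2 passed the filter through the Mtgr1-/- libraries alone, so that its passing already favoured a difference. With no filter its adjusted p was 0.00383 by the limma test described below.

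Imprinted genes are transcribed mainly or solely from the copy inherited from 1 parent. The copies are told apart by DNA methylation laid down in the germ line at imprinting control regions, which the embryo keeps with the help of zinc finger proteins such as Zfp57, their partner Trim28 and the maintenance methyltransferase Dnmt1. Genes of a cluster share such a region, often with a long non-coding RNA on the copy where the neighbouring genes are silent, and in mESCs imprints can be lost in culture and then stay lost in a clone. RPKM values add up both copies and cannot tell which of them was read.

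The promoters of 4 paternally expressed genes that were higher in Mtgr1-/- cells are shown first, because they differ in what happened in Prdm14-/- cells. Peg3 and Nnat also rose there and Mest and Magel2 did not pass the test. RefSeq (GRCm38.p6) windows of 250 bases before to 50 after a start were found for 30 of the 38 members. CG dinucleotides, the sites of DNA methylation, are in capitals. The windows lie at chr7:6730370-6730669 on the minus strand (Peg3), and on the plus strand at chr2:157559828-157560127 (Nnat), chr6:30737800-30738099 (Mest) and chr7:62376729-62377028 (Magel2).
Peg3: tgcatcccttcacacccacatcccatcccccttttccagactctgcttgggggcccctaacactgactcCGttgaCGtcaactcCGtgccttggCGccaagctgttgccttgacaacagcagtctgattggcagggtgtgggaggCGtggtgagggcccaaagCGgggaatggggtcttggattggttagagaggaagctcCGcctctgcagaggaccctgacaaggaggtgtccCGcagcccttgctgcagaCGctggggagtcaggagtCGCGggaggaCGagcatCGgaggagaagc
Nnat: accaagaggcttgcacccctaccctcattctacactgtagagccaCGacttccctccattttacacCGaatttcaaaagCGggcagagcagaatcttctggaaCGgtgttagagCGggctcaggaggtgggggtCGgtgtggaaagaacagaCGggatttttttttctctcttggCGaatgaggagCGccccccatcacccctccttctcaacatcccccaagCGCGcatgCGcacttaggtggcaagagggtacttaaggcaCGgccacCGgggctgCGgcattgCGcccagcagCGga
Mest: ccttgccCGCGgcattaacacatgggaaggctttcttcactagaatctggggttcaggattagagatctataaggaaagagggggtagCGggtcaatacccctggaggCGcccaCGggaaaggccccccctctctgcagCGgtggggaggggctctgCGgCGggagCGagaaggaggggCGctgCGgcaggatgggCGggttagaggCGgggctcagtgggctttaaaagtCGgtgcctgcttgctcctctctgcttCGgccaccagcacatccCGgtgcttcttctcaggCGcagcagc
Magel2: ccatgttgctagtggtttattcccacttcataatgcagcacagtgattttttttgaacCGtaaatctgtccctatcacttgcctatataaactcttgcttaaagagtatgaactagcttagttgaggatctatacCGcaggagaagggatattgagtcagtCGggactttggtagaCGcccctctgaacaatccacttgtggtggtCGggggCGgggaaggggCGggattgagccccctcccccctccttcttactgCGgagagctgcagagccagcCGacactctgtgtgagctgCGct

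These windows hold 13, 17, 17 and 10 CG in that order. The median over the 44 member windows was 15.5 CG, against 7.0 over all 32851 windows of this length. The hexamer TGCCGC, the unmethylated form of the sequence that Zfp57 reads, was searched on both strands and stood in 12 of the 44 member windows (27.3%) and in 11.6% of all windows. It occurred 2 times in the Mest window shown and 1 time in that of Nnat, and the Peg3 and Magel2 windows held none. The 12 windows include 2 of Mest that are nearly the same. As the hexamer itself holds a CG and windows matched for CG were not compared, these shares do not show an excess beyond CG content. Windows of a gene can overlap, and the Peg3 window shares 263 bases with that of Usp29, which is read the other way. H19 is also the precursor of a miRNA, which these libraries of polyadenylated RNA did not measure. Its mature forms from RefSeq are shown with the seed (bases 2 to 8) in capitals.
mmu-miR-675-5p: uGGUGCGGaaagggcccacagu
mmu-miR-675-3p: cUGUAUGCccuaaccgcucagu

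Against their own rescue lines, Mtgr1-/- cells had 15 imprinted genes higher and 6 lower among the 33 tested, by limma on log2(RPKM + 0.5) with Benjamini-Hochberg adjustment over all genes and a threshold of 0.05. That is 63.6% of the members, while 52.3% of all 13477 genes tested were called in this comparison. The excess lay in the higher genes, which were 45.5% of the members and 26.2% of all genes, and not in the lower genes, which were 18.2% and 26.1%. Without Airn and Magel2, whose passing the filter already favoured a difference, 13 of 31 members were higher (41.9%) and 61.3% were called. Prdm14-/- cells had 8 members higher and 2 lower than FH-Prdm14 cells, or 30.3% of the members beside 25.2% of all genes (24.2% beside 11.4% for higher, 6.06% beside 13.8% for lower). E294K cells had 8 higher and 4 lower than FH-Prdm14 cells, or 36.4% of the members beside 19.5% of all genes (24.2% beside 6.35% for higher, 12.1% beside 13.2% for lower). This count fell to between 4 and 5 when any of the 4 libraries, FH-Prdm14 G6 or F10 or E294K F10 or G6, was left out, and it rose to 20 when the fit held the compared conditions alone. The median log2 change of the members was 0.28, 0.12 and 0.29 in the 3 comparisons, beside -0.01, -0.09 and -0.06 over all genes. The last 2 comparisons share the FH-Prdm14 libraries. Values of markers of other cell types moved with these groups. The 7 trophoblast markers, which include the member Ascl2, summed to 90.9 to 98.6 RPKM in Mtgr1-/- and 21.5 to 29.6 RPKM in FH-Mtgr1 cells, with Elf5 under 0.5 RPKM in every Mtgr1-/- library, and the 10 endoderm markers to 204 to 250 and 114 to 141 RPKM. The endoderm sum was carried by Sparc and Col4a1, which were higher, whereas Gata4, Gata6 and Pdgfra were lower and the median log2 change of the 8 endoderm markers tested was -0.61. Pdgfra passed the filter through the FH-Mtgr1 libraries alone, where it is high, so that its passing already favoured a difference. The 5 epiblast markers summed to 358 to 491 RPKM in Mtgr1-/- and 161 to 203 RPKM in FH-Mtgr1 cells, to 265 to 311 RPKM in Prdm14-/- and 43.2 to 54.5 RPKM in FH-Prdm14 cells, and to 293 to 315 RPKM in E294K cells. Their part in the results below was not tested, and in bulk RNA fewer cells of a type and less RNA per cell cannot be told apart.

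**Figure D1:**
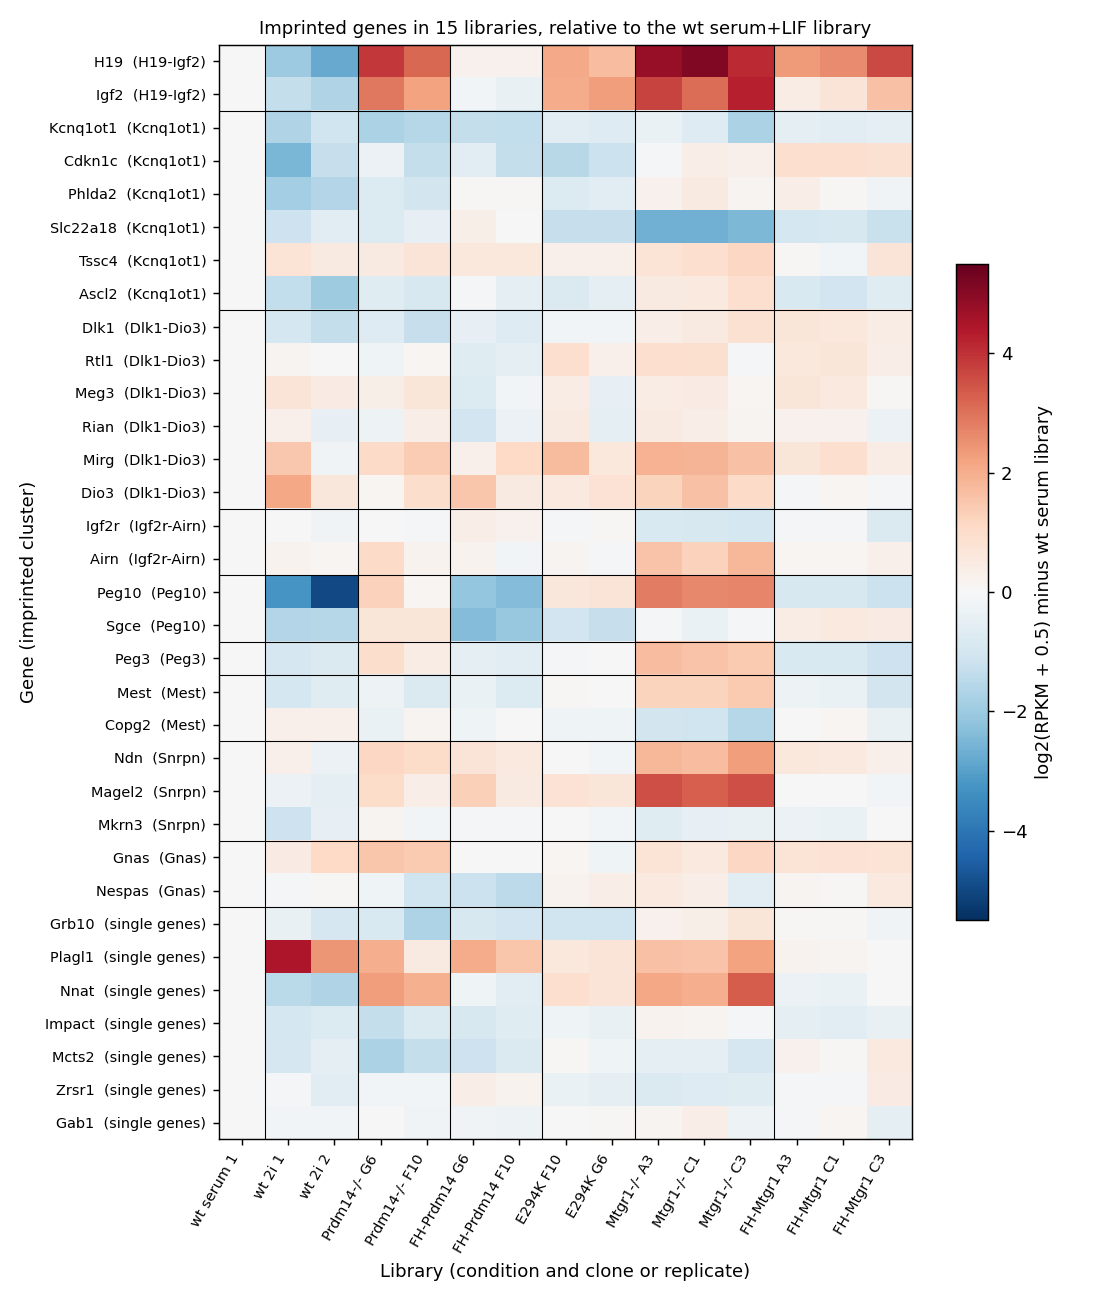
Level of the 33 imprinted genes past the filter (rows, by cluster) in each of the 15 libraries (columns), as log2(RPKM + 0.5) minus the value of the single wt serum+LIF library. H19, Igf2, Peg10, Nnat and Magel2 stand out in the 3 Mtgr1-/- libraries, and Slc22a18 and Copg2 are low there.

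H19 and Igf2 lie in 1 domain of chromosome 7 (NCBIM37, H19 at chr7:149761434-149764048 and Igf2 at chr7:149836673-149852721, both on the minus strand). H19 is a non-coding RNA of the maternal copy and Igf2 a fetal growth factor read from the paternal copy. H19 was at 1238, 1510 and 768 RPKM in Mtgr1-/- clones A3, C1 and C3 and at 221.5, 268 and 555 RPKM in their rescues. The knockout libraries all lay above the rescue libraries, by the least margin in clone C3. The change was 1.81 on the log2 scale (SE 0.35, limma adjusted p = 0.001). Within clones the ratio of knockout to rescue was 5.59 in A3, 5.63 in C1 and 1.39 in C3. In Prdm14-/- clones G6 and F10 H19 was at 646 and 389 RPKM, against 51.4 and 52.0 RPKM in FH-Prdm14 and 43.7 RPKM in wt serum+LIF cells (log2 change against the rescue 3.27, SE 0.43, adjusted p = 0.000226). The E294K libraries, at 187 (F10) and 143 RPKM (G6), lay between knockout and rescue.

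Igf2 rose with H19 and not against it. It was at 37.1, 23.8 and 56.0 RPKM in Mtgr1-/- clones A3, C1 and C3 and at 3.32, 4.27 and 8.36 RPKM in FH-Mtgr1 cells, with no overlap (log2 change 2.77, SE 0.34, adjusted p = 4.35e-05). Prdm14-/- cells held 21.2 and 12.7 RPKM and FH-Prdm14 cells 2.10 and 1.65 RPKM (2.84, SE 0.41, adjusted p = 0.000449). E294K cells were at 11.4 and 13.5 RPKM (2.45 above FH-Prdm14, SE 0.41, adjusted p = 0.00186). H19 stayed the more abundant per length in all 15 libraries. The ratio of H19 to Igf2 RPKM was 66.7, 62.8 and 66.3 in FH-Mtgr1 clones A3, C1 and C3, and 33.3, 63.6 and 13.7 in the Mtgr1-/- libraries of those clones. The rescues were thus alike in this ratio and the knockouts were not. Clone C3 had the lowest H19 and the highest Igf2 of the knockouts and the highest values of both genes among the rescues. In the Prdm14 lines the ratio was 30.5 and 30.6 in Prdm14-/-, 24.5 and 31.5 in FH-Prdm14 and 16.5 and 10.6 in E294K cells.

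Peg10 and Sgce are read in opposite directions from 1 shared start region on chromosome 6 (NCBIM37, Peg10 at chr6:4697306-4710514 on the plus strand, Sgce at chr6:4624350-4697204 on the minus strand), both from the paternal copy. Peg10 is a retrotransposon-derived gene needed for the placenta and Sgce encodes epsilon-sarcoglycan. Peg10 was at 848.5, 753 and 775 RPKM in Mtgr1-/- and at 65.0, 64.5 and 51.8 RPKM in FH-Mtgr1 cells, with no overlap (log2 change 3.71, SE 0.36, adjusted p = 1.08e-05). Sgce was at 11.2, 9.35 and 11.3 RPKM in the same Mtgr1-/- libraries and at 16.6, 18.05 and 17.01 RPKM in the rescues, and so moved the other way (-0.67, SE 0.13, adjusted p = 0.00097). The Peg10 to Sgce ratio was 75.5, 80.6 and 68.6 in Mtgr1-/- cells and 3.92, 3.57 and 3.05 in FH-Mtgr1 cells.

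In the Prdm14 lines the pair moved together. Peg10 was at 290 and 128 RPKM in Prdm14-/- and 26.6 and 22.1 RPKM in FH-Prdm14 cells (2.97, SE 0.45, adjusted p = 0.000562), and Sgce at 19.6 and 19.8 RPKM and at 1.91 and 2.47 RPKM (2.92, SE 0.16, adjusted p = 8.6e-07). The ratio was 14.8 and 6.47 in Prdm14-/- and 13.9 and 8.94 in FH-Prdm14 cells, which overlap. E294K cells had Peg10 at 183 and 197 RPKM, within the range of the Prdm14-/- libraries, and Sgce at 5.62 and 4.76 RPKM, below both of them. Their ratio was 32.5 and 41.4. Wt cells grown in serum+LIF held 119 RPKM of Peg10, close to the 128 RPKM of Prdm14-/- F10. Relative to these wt cells, the log2 change of Peg10 was 0.69 in Prdm14-/- cells, which did not pass the test. In FH-Prdm14 cells it was -2.27. Measured from this single wt library, the larger part of the Peg10 change between knockout and rescue lay in the low level of the rescue. Peg10 was called lower in FH-Prdm14 than in wt cells, but this call was lost without FH-Prdm14 G6 or F10. Sgce in FH-Prdm14 cells was also below wt serum+LIF (12.2 RPKM, log2 change -2.25, SE 0.19, adjusted p = 0.00016), a comparison that rests on the single wt library. Of the 33 members Sgce was the only gene called in both knockout-rescue comparisons with opposite signs, and the difference of the changes was itself called (log2 -3.59, adjusted p = 5.59e-06 by limma).

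**Figure D2:**
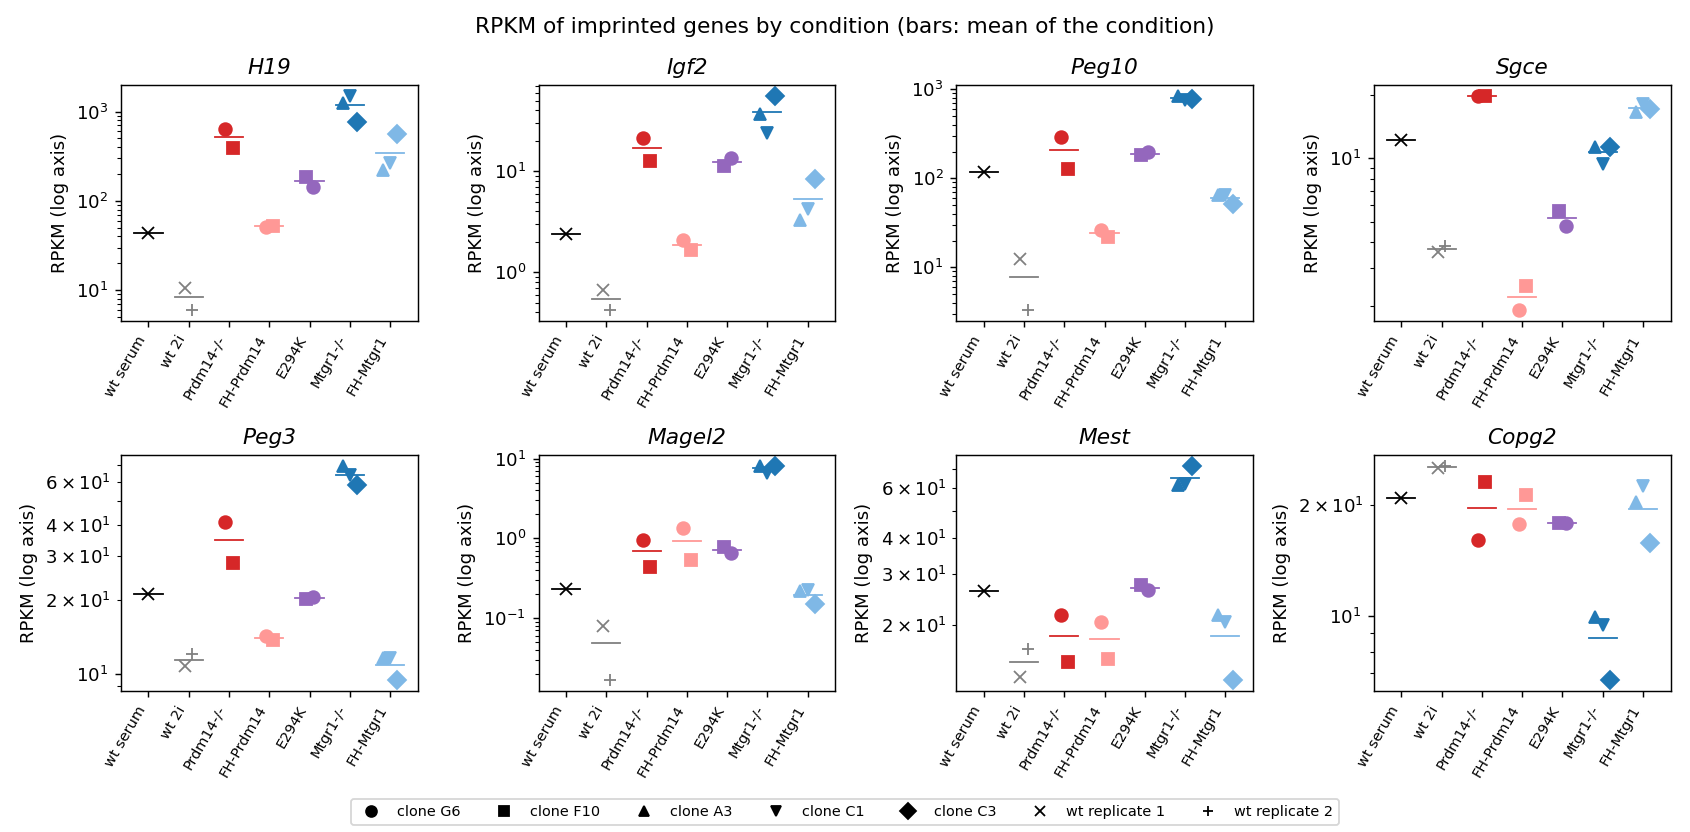
RPKM (log axis) of 8 imprinted genes in each library by condition, where symbols mark the clone and bars the mean of the condition. Peg10 and Igf2 are higher in both knockouts than in their rescues, while Sgce is lower in Mtgr1-/- and higher in Prdm14-/- cells than in the respective rescue.

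Peg3, a zinc finger protein read from the paternal copy, was at 69.7, 64.2 and 58.4 RPKM in Mtgr1-/- cells and at 11.7, 11.7 and 9.49 RPKM in FH-Mtgr1 cells (log2 change 2.50, SE 0.15, adjusted p = 5.74e-07). The Prdm14-/- libraries held 41.3 and 28.3 RPKM and the FH-Prdm14 libraries 14.3 and 13.8 RPKM (1.26, SE 0.18, adjusted p = 0.000377). Neither pair of groups overlapped. E294K cells, at 20.2 and 20.6 RPKM, did not pass the test against FH-Prdm14 (0.52, SE 0.18, adjusted p = 0.0581). Its neighbours Usp29 and Zim1 stayed under 1 RPKM in every library, with 11 to 62 and 7 to 47 reads, and were not tested.

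Mest, a hydrolase-like protein read from the paternal copy, was at 61.3, 62.1 and 71.8 RPKM in Mtgr1-/- and 21.6, 20.4 and 12.8 RPKM in FH-Mtgr1 cells (log2 change 1.84, SE 0.20, adjusted p = 2.33e-05). Copg2, a coatomer subunit on the other strand, was at 9.96, 9.44 and 6.70 RPKM in Mtgr1-/- and 20.3, 22.5 and 15.7 RPKM in FH-Mtgr1 cells (-1.13, SE 0.18, adjusted p = 0.000324). The ratio of Mest to Copg2 was 6.16, 6.58 and 10.7 in the knockouts and 1.06, 0.907 and 0.815 in the rescues. The genes share 904 exon bases on opposite strands (23.0% of Mest and 20.2% of Copg2), and nothing states that strand was used in counting, so reads of this overlap cannot be assigned. In the Prdm14 lines neither gene passed the test, with log2 changes of 0.02 (SE 0.25) for Mest and -0.01 (SE 0.23) for Copg2 between knockout and rescue.

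In the Snrpn cluster, Magel2 and Ndn encode proteins of the MAGE family and are paternally expressed. Magel2 was at 8.13, 6.53 and 8.10 RPKM (782, 550 and 428 reads) in Mtgr1-/- and at 0.218, 0.222 and 0.152 RPKM (14, 22 and 9 reads) in FH-Mtgr1 cells, with a log2 change of 3.53 (SE 0.23, adjusted p = 1.13e-06) that the pseudocount makes smaller than the ratio of the RPKM. It reached 1 RPKM in only 1 library outside Mtgr1-/- cells, so that its passing the filter favoured a difference, and with no filter its adjusted p was 7.21e-06. Ndn was at 16.7, 15.1 and 23.2 RPKM in Mtgr1-/- and 6.72, 6.42 and 5.28 RPKM in FH-Mtgr1 cells (1.49, SE 0.19, adjusted p = 5.81e-05). The ratio of Ndn to Magel2 fell from 30.9, 28.9 and 34.8 in the rescues to 2.06, 2.31 and 2.86 in the knockouts. Mkrn3, a RING finger protein, was at 2.04 to 2.53 RPKM in Mtgr1-/- and 2.57 to 3.55 RPKM in FH-Mtgr1 cells and did not pass the test (adjusted p = 0.237). Snrpn, a splicing protein whose promoter lies in the control region, was listed at no more than 0.185 RPKM, or 5 reads. Snurf, which shares its transcript, was listed at 0 in all 15 libraries, and as reads that fall on both genes may not have been counted, these values are no measure of whether the transcript was made. In the Prdm14 lines Magel2 (0.434 to 1.34 RPKM) and Ndn (6.58 to 10.2 RPKM) did not pass the test between knockout and rescue.

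Among genes with no other member nearby, Nnat, a small membrane protein of the paternal copy, was at 78.0, 72.6 and 182 RPKM in Mtgr1-/- and 14.1, 13.5 and 17.5 RPKM in FH-Mtgr1 cells (log2 change 2.72, SE 0.28, adjusted p = 1.49e-05). It was at 89.4 and 69.5 RPKM in Prdm14-/- and 15.0 and 11.6 RPKM in FH-Prdm14 cells (2.54, SE 0.34, adjusted p = 0.000297), and at 34.3 and 29.2 RPKM in E294K cells (1.23, SE 0.34, adjusted p = 0.0264), a call lost when any 1 of the 4 FH-Prdm14 and E294K libraries was left out. Plagl1, a zinc finger factor, was at 2.51, 2.40 and 4.01 RPKM in Mtgr1-/- and 0.620, 0.591 and 0.478 RPKM in FH-Mtgr1 cells (1.68, SE 0.46, adjusted p = 0.00897). Its values in the 2i+LIF libraries were 20.9 and 4.72 RPKM. Across genes these libraries were the least alike of any pair within a condition (chi-square per degree of freedom 69.2, against 3.42 to 46.9 in the other pairs). This spread is therefore not particular to Plagl1. Impact, which restrains the eIF2 kinase Gcn2, rose by 0.62 (adjusted p = 0.00384), and the retrogenes Mcts2 and Zrsr1 fell by 0.92 and 0.83 in Mtgr1-/- cells (adjusted p = 0.00143 and 0.0011). Zrsr1 shares 203 exon bases with Commd1 on the other strand. The adaptors Grb10 and Gab1 did not pass the test in any of the knockout-rescue comparisons.

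In the Kcnq1ot1 cluster the 6 members tested went apart. Slc22a18, a transporter of the maternal copy, was at 0.238, 0.238 and 0.326 RPKM (8, 7 and 6 reads) in Mtgr1-/- and at 1.87, 2.03 and 1.45 RPKM in FH-Mtgr1 cells (log2 change -1.57, SE 0.18, adjusted p = 2.55e-05). It was also lower in Prdm14-/- cells, at 2.23 and 2.83 against 5.31 and 4.21 RPKM (-0.80, SE 0.22, adjusted p = 0.0179), a call lost without either the Prdm14-/- or the FH-Prdm14 library of clone G6. In E294K cells it was at 1.39 and 1.39 RPKM (-1.47, SE 0.22, adjusted p = 0.000828). Ascl2, a transcription factor of trophoblast, rose in Mtgr1-/- cells from 4.45, 3.86 and 5.12 to 12.3, 12.5 and 16.6 RPKM (1.52, SE 0.20, adjusted p = 7.09e-05), and Tssc4, which shares 220 exon bases with Trpm5 on the other strand, rose by 0.71 (SE 0.19, adjusted p = 0.00711). Phlda2, which limits placental growth, was lower in Prdm14-/- (26.0 and 21.8 RPKM) than in FH-Prdm14 cells (46.1 and 46.8 RPKM; -0.95, SE 0.19, adjusted p = 0.00285). Cdkn1c, a cell cycle inhibitor, lay at 12.8 to 17.2 RPKM in Mtgr1-/- and 24.0 to 25.7 RPKM in FH-Mtgr1 cells, which do not overlap, but did not pass the test (adjusted p = 0.0847). Kcnq1ot1, the non-coding RNA that silences this cluster in cis on the paternal copy, did not pass in either knockout-rescue comparison, and Kcnq1 itself had at most 7 reads in a library.

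Igf2r, the receptor that clears Igf2, was at 12.8, 12.1 and 11.5 RPKM in Mtgr1-/- and at 21.1, 21.6 and 13.1 RPKM in FH-Mtgr1 cells (log2 change -0.56, SE 0.17, adjusted p = 0.0151). Its call was lost without the FH-Mtgr1 library of A3 or of C1. Airn, the non-coding RNA whose transcription silences Igf2r on the paternal copy, was at 1.17, 0.834 and 1.45 RPKM (53, 33 and 36 reads) in Mtgr1-/- and at 0.0994, 0.108 and 0.1795 RPKM (3, 5 and 5 reads) in FH-Mtgr1 cells (1.38, SE 0.23, adjusted p = 0.000423). As Airn reached the filter in Mtgr1-/- cells alone, its passing the filter already favoured a difference, and with no filter its adjusted p was 0.00055. In Prdm14-/- cells Airn was at 0.670 RPKM in G6 and 0.142 RPKM in F10.

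Gnas, which encodes a G protein subunit, was at 85.2 and 80.6 RPKM in Prdm14-/- and 28.5 and 28.6 RPKM in FH-Prdm14 cells (log2 change 1.52, SE 0.22, adjusted p = 0.000447), but at 43.0 to 64.8 RPKM in Mtgr1-/- and 49.5 to 51.4 RPKM in FH-Mtgr1 cells (0.04, SE 0.18). Nespas, its antisense RNA, shares 988 exon bases with it (31.4% of Nespas) and was higher in E294K (4.42 and 5.11 RPKM) than in FH-Prdm14 cells (1.42 and 1.11 RPKM; 1.58, SE 0.36, adjusted p = 0.00945), a call lost without the FH-Prdm14 library of F10 or either E294K library. Gnas in E294K cells was at 31.3 and 24.6 RPKM, near FH-Prdm14.

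**Figure D3:**
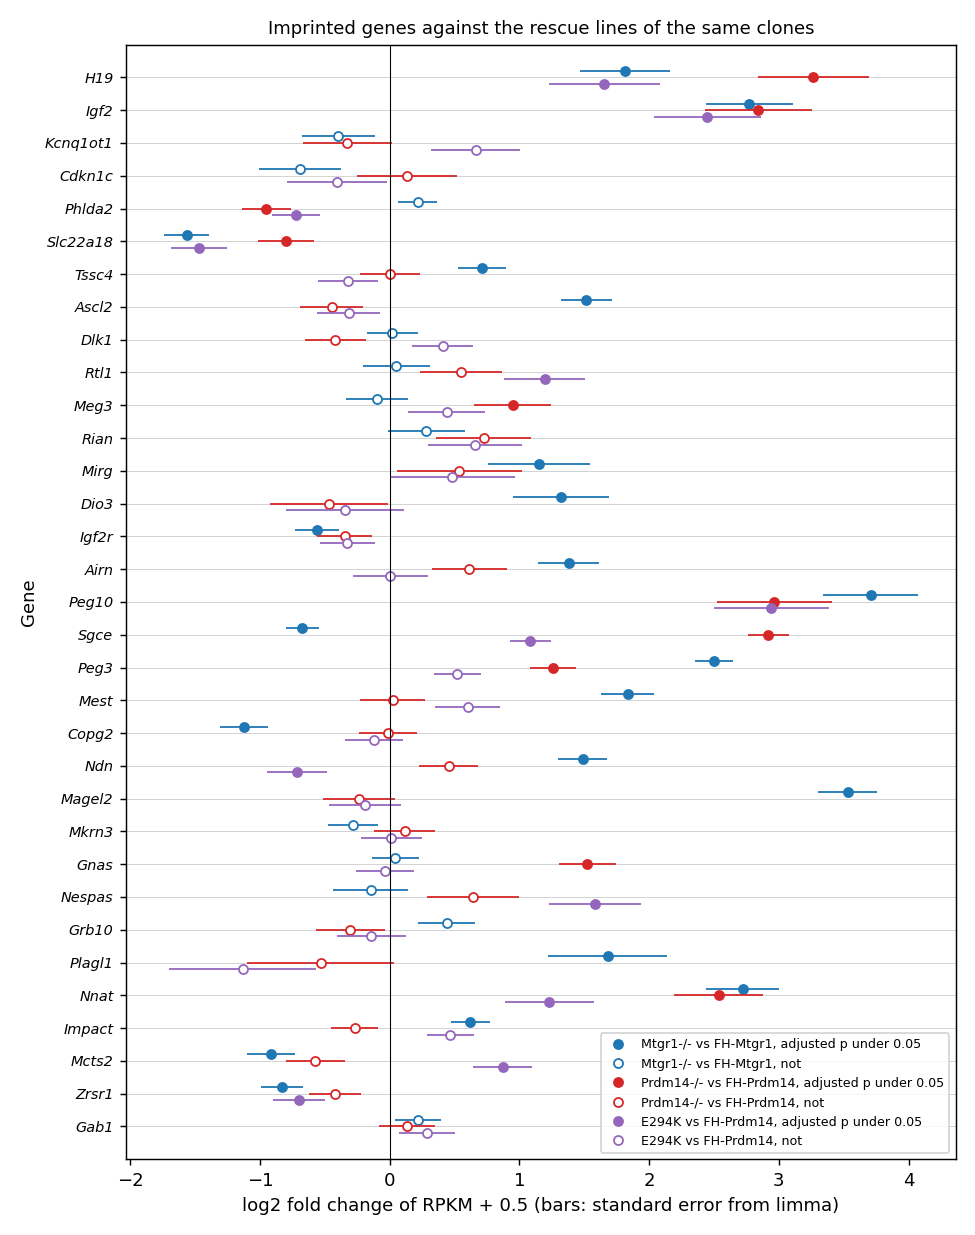
Log2 change of each member (RPKM + 0.5) against the rescue of the same clones, with the standard error from limma, for Mtgr1-/- (blue), Prdm14-/- (red) and E294K cells (purple). Filled points passed an adjusted p of 0.05. Magel2 and Mest are at 3.53 and 1.84 in Mtgr1-/- and near 0 in Prdm14-/- cells, and Sgce has opposite signs.

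The Mtgr1 and Prdm14 knockout-rescue comparisons share no library. Of the 21 and 10 members called in them 7 were called in both (H19, Igf2, Nnat, Peg10, Peg3, Sgce and Slc22a18), 6 of them in the same direction, 14 were called in the Mtgr1 lines only and 3 (Gnas, Meg3 and Phlda2) in the Prdm14 lines only. Those called in both were 21.2% of the members tested beside 14.5% of all genes, and those called in the same direction 18.2% beside 11%. They were 33.3% of the members called in the Mtgr1 lines and 70% of those called in the Prdm14 lines, beside 27.7% and 57.6% over all genes. A call in 1 of the comparisons does not show a difference between them. The difference of the changes was called for 12 members, 9 more positive in the Mtgr1 lines and 3 more negative (36.4% of the members beside 31.4% of all genes, 27.3% beside 17.1% and 9.09% beside 14.3% by sign). Sorted by the copy that textbooks give as expressed, an assignment made after the values were seen, Mtgr1-/- cells had 11 of 19 paternally expressed members higher and 3 lower, and 4 of 13 maternally expressed members higher and 3 lower, beside 26.2% of all genes higher and 26.1% lower. Without Airn and Magel2 the paternal count was 9 of 17 higher. In Prdm14-/- cells 5 of 19 paternal members were higher and none lower, and 3 of 13 maternal members higher and 2 lower, beside 11.4% and 13.8% of all genes. The comparison of E294K with Prdm14-/- cells called 11 members (4 higher and 7 lower), or 33.3% beside 32.9% of all genes (12.1% beside 15.1% for higher, 21.2% beside 17.8% for lower). Without Prdm14-/- G6, E294K F10 or E294K G6 it called 5. H19 (-1.61, SE 0.43, adjusted p = 0.0143), Sgce (-1.83, SE 0.16, adjusted p = 3.89e-05) and Gnas (-1.56, SE 0.22, adjusted p = 0.0006) were lower in E294K, and Mcts2 was higher (1.45, SE 0.23, adjusted p = 0.00108). The H19 call was lost without the Prdm14-/- or the E294K library of clone G6.

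Set against the single wt serum+LIF library, which has no replicate of its own, Mtgr1-/- cells had 13 members higher and 4 lower (51.5% of members beside 37% of all genes, 39.4% beside 14.9% for higher and 12.1% beside 22.1% for lower). Prdm14-/- cells had 7 higher and 6 lower (39.4% beside 25.4%, 21.2% beside 11.7% for higher and 18.2% beside 13.7% for lower), a count of 13 that fell to 8 without Prdm14-/- G6 and to 4 with the compared conditions alone in the fit. FH-Mtgr1 cells differed in 2 members (6.06% beside 2.74% of all genes, with 1.03% higher and 1.71% lower), H19 at 2.86 above wt (SE 0.49, adjusted p = 0.0176) and Peg3 at 0.93 below (adjusted p = 0.0391), and Peg3 was lost under median-of-ratios scaling and without any 1 of the FH-Mtgr1 libraries A3, C1 and C3. Both were lost with the compared conditions alone in the fit (0 called by limma, 11 members at an unadjusted p under 0.05). FH-Prdm14 cells differed in 4, Impact, Mcts2, Peg10 and Sgce, all lower (12.1% beside 12.5% of all genes, with 6.92% higher and 5.6% lower), and Sgce alone was left without FH-Prdm14 G6 or F10. With the compared conditions alone in the fit this count was 11. H19 in FH-Mtgr1 cells was thus above wt in 3 of 3 clones (221.5 to 555 against 43.7 RPKM) and in the FH-Prdm14 clones (51.4 and 52.0 RPKM) it was close to wt. These comparisons share the wt library. In wt cells 13 members were called between 2i+LIF and serum+LIF, 12 lower in 2i+LIF and Plagl1 higher (39.4% beside 22.9% of all genes, with 9.28% higher and 13.6% lower). Peg10 was at 12.2 and 3.33 RPKM in 2i+LIF and 119 RPKM in serum+LIF, and H19 at 10.7 and 6.001 against 43.7 RPKM. With the wt libraries alone in the fit, none of these 13 passed and 10 members were at an unadjusted p under 0.05 by limma. Across genes the 2i+LIF libraries were the least alike of any pair within a condition.

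In the Dlk1-Dio3 cluster on chromosome 12, single clones were compared across their lines. Meg3, Rian and Mirg are non-coding RNAs of the maternal copy, and Dlk1, Rtl1 and Dio3 are read from the paternal copy. Meg3 was at 32.2 RPKM in Prdm14-/-, 15.0 RPKM in FH-Prdm14 and 18.6 RPKM in E294K cells of clone G6, and at 41.3, 23.2 and 34.9 RPKM in those of clone F10. Rian was at 57.3, 34.0 and 48.5 RPKM in G6 and 90.6, 55.6 and 97.9 RPKM in F10. Mirg was at 10.5, 5.87 and 7.40 RPKM in G6 and 13.3, 10.9 and 17.4 RPKM in F10. Each of the 3 RNAs was higher in F10 than in G6 in 3 of 3 conditions, by a factor of 1.27 to 2.35, and so was Rtl1 (1.20 to 1.80). The other genes of the cluster were not, with F10 to G6 ratios of 0.473, 0.747 and 1.01 for Dlk1 and 2.28, 0.409 and 0.814 for Dio3 in Prdm14-/-, FH-Prdm14 and E294K cells. Such an order was not particular to this cluster. Sgce, Impact and Mcts2 were also higher in F10 in 3 of 3 conditions. Ascl2, Cdkn1c, Gab1, Igf2, Igf2r, Nespas, Peg10, Peg3 and Plagl1 were lower in F10 in 3 of 3. This count was not made over all genes. The log2 difference between the clones was 0.62 (SE 0.12) for Meg3, 0.79 (SE 0.11) for Rian and 0.78 (SE 0.16) for Mirg. None passed adjustment over all genes (adjusted p = 0.855 each by limma), and in this test 0 of the 13477 genes were called, 505 were at an unadjusted p under 0.05 (3.75%), and 8 of 33 members were. Those 8 were Ascl2, Cdkn1c, Impact, Meg3, Mirg, Peg10, Plagl1 and Rian. By limma voom 0 were called too.

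**Figure D4:**
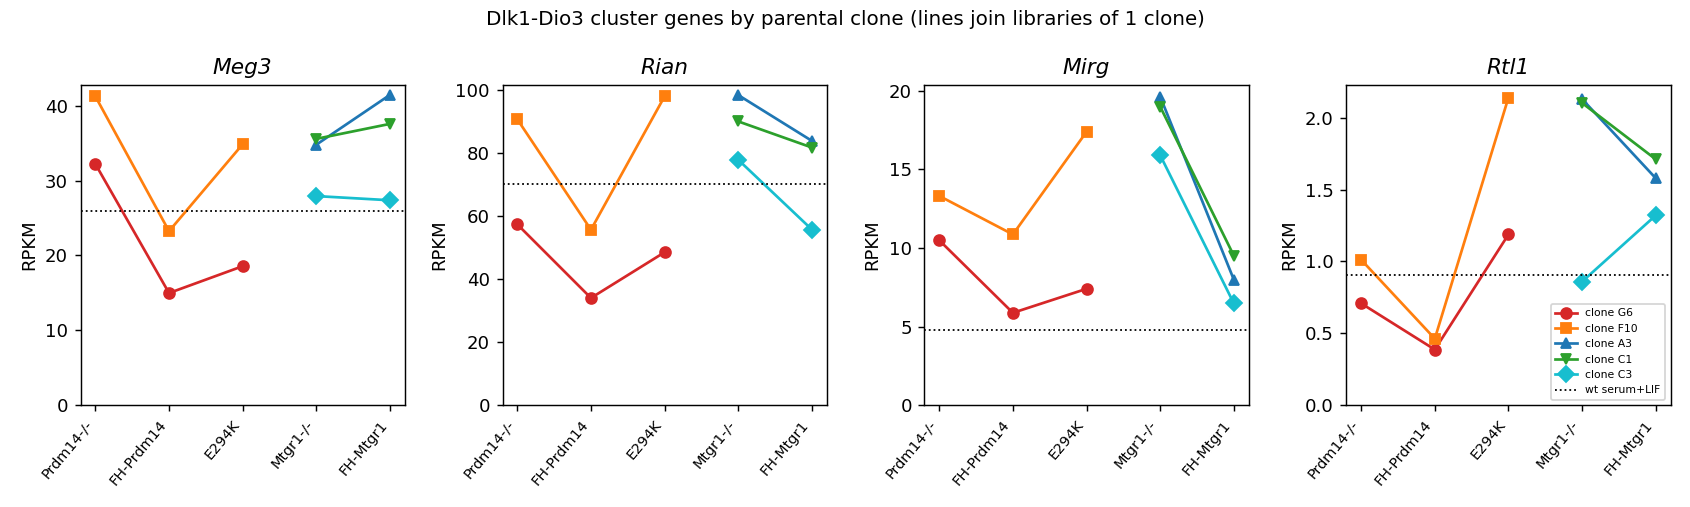
RPKM of 4 genes of the Dlk1-Dio3 cluster by condition, with lines that join the libraries of a clone. Clone F10 lies above G6 in every Prdm14 condition for all 4 genes, and clone C3 is the lowest of the Mtgr1 clones for all 4 genes in knockout and rescue.

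In the Mtgr1 lines Meg3 was at 34.8, 35.6 and 27.9 RPKM in Mtgr1-/- A3, C1 and C3 and at 41.5, 37.6 and 27.4 RPKM in the rescues, and C3 was the lowest of the clones on both sides. Rian showed the same order of C3 (98.3, 90.0 and 77.8 RPKM, and 83.8, 81.7 and 55.7 RPKM). Across A3, C1 and C3 no gene was called by limma (1696 of 13477 genes at an unadjusted p under 0.05, 12.6%, and 7 members), and by limma voom 80 genes and 0 members were. When the C3 library of Mtgr1-/- or of FH-Mtgr1 was left out, 1 and 4 members passed. Between knockout and rescue, Mirg (1.15, SE 0.39, adjusted p = 0.027) and Dio3, a deiodinase that inactivates thyroid hormone (1.32, SE 0.37, adjusted p = 0.0101), rose in Mtgr1-/- cells, and Meg3 (-0.10, SE 0.24) and Rian (0.28, SE 0.30) did not pass. The Mirg call was lost without Mtgr1-/- A3 or C1 or FH-Mtgr1 A3 or C3. Meg3 rose in Prdm14-/- cells (0.95, SE 0.30, adjusted p = 0.0342), a call lost without either Prdm14-/- library or FH-Prdm14 G6, and Rian (0.72, SE 0.36, adjusted p = 0.17) did not pass there, but did with the replicate block by clone (adjusted p = 0.0476). Rtl1 was higher in E294K than in FH-Prdm14 cells (1.19, SE 0.31, adjusted p = 0.0197), and this was lost without any 1 of FH-Prdm14 G6, FH-Prdm14 F10 and E294K F10. Dlk1, a membrane protein of the Notch ligand family, did not pass in the knockout-rescue comparisons.

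Of 12 factors that keep imprints, 5 were higher and 2 lower in Mtgr1-/- than in FH-Mtgr1 cells (58.3% beside 52.3% of all genes). Dnmt1 rose from 43.4, 44.0 and 34.7 to 76.8, 81.6 and 67.9 RPKM (log2 change 0.89, SE 0.13, adjusted p = 0.000148), and Trim28 by 0.98 (SE 0.20, adjusted p = 0.00178). The histone methyltransferase Setdb1 rose by 0.64, Zfp445 by 0.55 and Smchd1 by 0.37, while Arid4a and Arid4b fell by 1.03 and 0.72. For the 5 that rose, the single wt serum+LIF library was not always near the rescues. It lay within the range of the Mtgr1-/- libraries for Dnmt1 (71.5 RPKM) and Smchd1 (20.7 RPKM), and just above them for Zfp445 (18.9 RPKM). It lay between knockouts and rescues for Trim28 (400.5 RPKM) and Setdb1 (27.3 RPKM). Zfp57 was at 19.4 to 23.4 RPKM in Mtgr1-/- and 21.6 to 32.4 RPKM in FH-Mtgr1 cells and did not pass. In Prdm14-/- cells 1 of the 12 was called, Smchd1 (0.54, adjusted p = 0.0408), or 8.33% beside 25.2% of all genes. In E294K cells Eed (0.82) and Uhrf1 (0.56) were higher and Dppa3, which shares sequence with the Stella:GFP reporter, was lower than in FH-Prdm14 cells (-1.31, adjusted p = 0.0219). They were 25% of the 12 beside 19.5% of all genes.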

How the data were processed

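Reads were mapped by the authors to mm9 (Tophat) and assigned to RefSeq genes (HTSeq), whose versions are not given in the sources used here, and the submitters' processing notes also name GRCm38. The deposited values are RPKM with a gene length for 24015 genes. RPKM multiplied by length gave whole reads for 100.0% of values (tolerance 0.001), from which the depth was read. The 15 RNA-seq libraries were grouped by their labels. The libraries were sequenced on more than 1 instrument and the labels do not say which, and library preparation does not state strand.

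Values were taken as log2(RPKM + 0.5), which makes changes of low genes smaller, and genes with at least 1 RPKM in at least 2 libraries were kept. In limma 3.58.1 (R 4.3.3, eBayes, trend on) each condition had its own mean, all 15 libraries entered, and Benjamini-Hochberg adjustment ran over 13477 genes with a threshold of 0.05. Comparisons with the single wt serum+LIF library take their spread from the other conditions. Replicates are clones, or for wt samples that the labels do not call separate cultures, so p-values measure the spread between these samples, which may be technical. No libraries agreed within sampling noise. The fits were tested on simulated data. Clone numbers pair the samples because knockout and rescue come from the same clone (correlation of deviations 0.299 between Prdm14-/- and FH-Prdm14, 0.08 and 0.04 for E294K, and -0.182 to 0.063 in the Mtgr1 lines).

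The members and lists were chosen with earlier results of these data known. Full statistics are given for at most 8 members per comparison with the largest called change and no overlap, and for their cluster, and other members are named beside them. Alternatives were no filter, pseudocounts of 0.1 and 1, median-of-ratios scaling, voom on recovered reads, the compared conditions alone, a replicate block by clone and leaving out each library. An adjustment for GC content (92.4% of genes) was chosen after seeing the data. Positions come from NCBIM37 (the assembly also called mm9), whose annotation used here lacks Kcnq1ot1, and promoters from RefSeq GRCm38.p6. ChIP-seq samples of the series were not used here. Python 3.11.15 with numpy 2.4.6, pandas 2.3.3 and matplotlib 3.10.9 was used for other steps.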

Additional observations from a re-analysis of the deposited data

Results flagged for a closer look

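The change between knockout and rescue differed between the Mtgr1 and the Prdm14 lines for 12 imprinted genes, by the test of the difference itself in limma. More positive in the Mtgr1 lines were Magel2 (log2 difference 3.77, adjusted p = 5.19e-05), Plagl1 (2.21, adjusted p = 0.0365), Ascl2 (1.96, adjusted p = 0.000874), Mest (1.81, adjusted p = 0.00162), Dio3 (1.79, adjusted p = 0.0355), Peg3 (1.25, adjusted p = 0.00198), Phlda2 (1.17, adjusted p = 0.0036), Ndn (1.03, adjusted p = 0.0205) and Impact (0.89, adjusted p = 0.0129). More negative were Sgce (-3.59, adjusted p = 5.59e-06), Gnas (-1.48, adjusted p = 0.0025) and Copg2 (-1.11, adjusted p = 0.0126). Magel2 passed the filter through the Mtgr1-/- libraries alone, where it is high, and with no filter its adjusted p was 0.000212. Without Airn and Magel2 11 members were called (8 more positive and 3 more negative). Peg3 rose in both knockouts and differed in size, whereas the change of Sgce against the rescue differed in sign. Each difference sets 2 changes against a rescue side by side and does not compare the knockouts directly. FH-Prdm14 cells held far more Prdm14 RNA than wt cells. Sgce was at 1.91 and 2.47 RPKM in FH-Prdm14, 16.6 to 18.05 RPKM in FH-Mtgr1 and 12.2 RPKM in wt serum+LIF cells. Against that single wt library its log2 change was -0.195 in Mtgr1-/- and 0.67 in Prdm14-/- cells. The calls of Plagl1, Dio3, Ndn, Copg2 and Impact were lost when single libraries were left out, for Copg2 without Prdm14-/- F10 or FH-Prdm14 G6, for Ndn without the same libraries and for Impact without Prdm14-/- G6 or FH-Prdm14 F10. Plagl1 lost its call without any 1 of 8 libraries (Prdm14-/- F10, FH-Prdm14 G6 or F10, Mtgr1-/- A3 or C3, and FH-Mtgr1 A3, C1 or C3) and Dio3 without any 1 of 7 (Prdm14-/- G6, FH-Prdm14 G6, Mtgr1-/- A3 or C1, and FH-Mtgr1 A3, C1 or C3). With the replicate block by clone the calls of Plagl1, Dio3 and Ndn were lost too (adjusted p = 0.0595, 0.0748 and 0.0507 by limma). Against the rescues, the sum of the epiblast markers was higher in both knockouts, though Otx2 was lower in Mtgr1-/- cells. The trophoblast sum was higher in Mtgr1-/- cells. In the Prdm14 lines it overlapped (41.8 to 47.7 RPKM in Prdm14-/- and 44.8 to 50.5 RPKM in FH-Prdm14 cells). Of the 5 trophoblast markers tested there, 1 was called higher and 0 lower (20% and 0%, beside 11.4% and 13.8% of all genes), with a median log2 change of 0.93. The endoderm sum was higher in both knockouts, but in Mtgr1-/- cells 2 of its 8 tested markers were higher and 3 lower (25% and 37.5%, beside 26.2% and 26.1% of all genes). Pdgfra, which was lower, passed the filter through the FH-Mtgr1 libraries alone, where it is high. The part of these markers in these differences was not tested. No condition had 4 libraries, so single libraries could not be tested as outliers.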

How the results depend on the processing

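The counts of members called between Mtgr1-/- and FH-Mtgr1 (21, and 19 to 23 elsewhere), Prdm14-/- and FH-Prdm14 (10, and 8 to 11) and Mtgr1-/- and wt (17, and 16 to 18), and of called differences (12, and 8 to 15), stayed within 1.5 times. With the compared conditions alone in the fit, E294K against FH-Prdm14 gave 20 in place of 12, Prdm14-/- against wt 4 in place of 13, FH-Prdm14 against wt 11 in place of 4, and FH-Mtgr1 against wt and 2i+LIF against serum+LIF 0 in place of 2 and 13 (limma, with 11 and 10 members at an unadjusted p under 0.05). No filter gave 2 members for FH-Prdm14 against wt, and median-of-ratios scaling, which removed a shift of -0.11 in the median of all genes, gave 1 for FH-Mtgr1 against wt. Leaving out single libraries gave 4 to 5 for E294K against FH-Prdm14, 5 to 9 in place of 11 for E294K against Prdm14-/- (5 without Prdm14-/- G6 or either E294K library), 8 to 10 for Prdm14-/- against wt (8 without G6), 1 to 1 for both rescues against wt, 12 to 17 for 2i+LIF against serum+LIF and 0 to 4 for the clones A3, C1 and C3. The causes were not tested. Of 115 calls of single members, 61 held under every alternative, and of 1354 values 1181 stayed called, 173 lost the call and 0 reversed. With the replicate block by clone, counts were 21, 11, 10 and 11 in the knockout and E294K comparisons and 11 for the difference, and 6 of 66 calls were lost: Ndn (adjusted p = 0.0965) and H19 (0.0516) in E294K against FH-Prdm14, Slc22a18 (0.0695) in E294K against Prdm14-/-, and Plagl1 (0.0595), Dio3 (0.0748) and Ndn (0.0507) in the difference. The block gained 4 calls, Rian in Prdm14-/- against FH-Prdm14 (adjusted p = 0.0476), Meg3 in E294K against Prdm14-/- (0.0481) and Meg3 (0.00885) and Tssc4 (0.0454) in the difference, and the pairing changed no other call. Leaving out Airn and Magel2, chosen after seeing the data, gave 19 for the Mtgr1 lines and 11 for the difference. Leaving out the single wt serum+LIF library gives no value for its comparisons. Depth limits Snrpn, Kcnq1, Airn, Magel2, Slc22a18, Zim1 and Nap1l5 most, which had under 10 reads in some libraries.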

Other observations

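Of 43 other genes reported as imprinted in mouse, 41 were found in the files and 26 passed the filter. In Mtgr1-/- against FH-Mtgr1 cells 11 were higher and 4 lower by limma (57.7% beside 52.3% of all genes). Calcr and Peg13 passed the filter through the Mtgr1-/- libraries alone, where they are high, and without them 9 of 24 were higher and 4 lower. Sfmbt2, a Polycomb-group protein of the placenta, rose by 3.998 on the log2 scale (SE 0.44, adjusted p = 2.16e-05), Zdbf2 by 2.76 (SE 0.36, adjusted p = 7.46e-05), Peg12 by 1.92 (SE 0.27, adjusted p = 0.000118), Calcr, the calcitonin receptor near Peg10, by 1.46 (SE 0.18, adjusted p = 4.36e-05, and 3.18e-05 with no filter) and Pon2, also of that cluster, by 1.39 (SE 0.18, adjusted p = 7.27e-05). In Prdm14-/- against FH-Prdm14 cells 6 were higher and 4 lower (38.5% beside 25.2%). Pon2 rose by 1.77 (adjusted p = 0.000194), and Cobl and Ddc, neighbours of Grb10, fell by 3.28 and 2.31 (adjusted p = 0.000157 and 0.00112). The knockout-rescue changes of Cobl and Ddc differed between the Mtgr1 and Prdm14 lines (3.58 and 1.99, limma adjusted p = 0.000551 and 0.0107). So did those of Zdbf2 (3.04, adjusted p = 0.00228) and Sfmbt2 (2.55, adjusted p = 0.0154). Cobl was alike in the knockouts, at 2.454 and 2.625 RPKM in Prdm14-/- and 2.45 to 2.99 RPKM in Mtgr1-/- cells. Its rescues differed, at 28.0 and 30.2 RPKM in FH-Prdm14 and 1.88 to 2.45 RPKM in FH-Mtgr1 cells. Ddc was at 0.454 and 1.715 RPKM in Prdm14-/- and 0.845 to 1.40 RPKM in Mtgr1-/- cells. In E294K against FH-Prdm14 cells 3 were higher and 4 lower (26.9% beside 19.5%).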
